A study of Mus musculus with 10 samples.

Results

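The transforming growth factor beta (TGF-beta) and bone morphogenetic protein (BMP) family was followed in mouse spinal cord during experimental autoimmune encephalomyelitis. Members were chosen by gene symbol alone. They are the TGF-beta, BMP, growth differentiation factor (GDF), activin, inhibin and AMH ligand genes, their receptors, the SMAD genes, the latent TGF-beta binding proteins and the antagonists noggin, chordin, gremlin, follistatin and follistatin-like proteins. The symbol rule found 64 of the 21936 genes in the table, and 48 of the 64 had enough reads to be tested.

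The study compared spinal cord of wild-type mice at day 14, with 5 samples in each of 2 groups. Experimental autoimmune encephalomyelitis (EAE) models multiple sclerosis in mice, with immune attack on the myelin of brain and cord. By title the groups are Nar and EAE. Nar is read here as mice with EAE given the citrus flavonoid naringenin, and EAE as the comparison group. The treatment field names naringenin in all 10 samples, so the vehicle or agent of the EAE group is unclear, as are strain, age, dose and the way EAE was induced. Healthy spinal cord was not analysed here. Whether each sample is its own animal is not stated, and the p-values then cover only sample-to-sample spread, which may be technical.

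Ligands of this family are secreted dimers that bind a type II receptor kinase, which then activates a type I receptor kinase. The activated type I receptor phosphorylates receptor SMADs (Smad2 and Smad3 for TGF-beta and activin, Smad1, Smad5 and Smad9 for BMP), which enter the nucleus with the common Smad4, while Smad6 and Smad7 inhibit the relay. In the central nervous system, TGF-beta signalling maintains microglia and shapes scar formation, BMP signalling favours astrocyte over oligodendrocyte fates, and noggin, chordin and gremlin bind BMPs outside the cell.

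Total counts were 14504726 to 15139706 reads per sample in Nar and 16658798 to 18961501 in EAE. Reads of the mitochondrial genome made up 6.69 to 7.51% of counts in Nar and 4.62 to 7.01% in EAE. Spinal cord markers were abundant in all 10 samples: the 5 oligodendrocyte markers summed to 3345 to 5213 FPKM (reads scaled to gene length and library total), and the 5 neuron markers to 993 to 1296 FPKM. The 3 skeletal muscle markers summed to at most 0.911 FPKM. Sample Nar 4 stood apart from its group. On the first principal component of all tested genes (45.8% of the variance), scores were −35.2 to −24.6 for Nar 1, 2, 3 and 5, 16.1 for Nar 4 and 8.17 to 34.9 for EAE. Results that rest on Nar 4 are given with and without it.

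The promoters of Tgfb1, Tgfbr1 and Tgfbr2 are shown because the ligand and its receptor pair had the widest differences among members of high read count. Each line gives the 250 bases before the RefSeq start site (GRCm38.p6), 5′ to 3′ on the strand of the gene, with GGGCGG (a GC box, or CCGCCC on the other strand) and CAGAC (a SMAD box, or GTCTG) in capitals. Tgfb1 lies on the plus strand at chr7:25686752-25687001, Tgfbr1 on the plus strand at chr4:47352972-47353221 and Tgfbr2 on the minus strand at chr9:116175364-116175613.
Tgfb1: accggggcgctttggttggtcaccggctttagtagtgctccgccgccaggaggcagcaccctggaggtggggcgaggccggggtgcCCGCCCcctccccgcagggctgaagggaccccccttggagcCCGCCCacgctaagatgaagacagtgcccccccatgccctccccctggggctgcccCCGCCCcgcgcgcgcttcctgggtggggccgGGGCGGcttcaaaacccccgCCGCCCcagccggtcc
Tgfbr1: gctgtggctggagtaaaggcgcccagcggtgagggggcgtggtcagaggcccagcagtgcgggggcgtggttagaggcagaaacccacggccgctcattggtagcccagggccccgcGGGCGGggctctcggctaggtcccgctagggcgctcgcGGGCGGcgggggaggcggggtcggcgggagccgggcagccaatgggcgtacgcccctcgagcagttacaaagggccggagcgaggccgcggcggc
Tgfbr2: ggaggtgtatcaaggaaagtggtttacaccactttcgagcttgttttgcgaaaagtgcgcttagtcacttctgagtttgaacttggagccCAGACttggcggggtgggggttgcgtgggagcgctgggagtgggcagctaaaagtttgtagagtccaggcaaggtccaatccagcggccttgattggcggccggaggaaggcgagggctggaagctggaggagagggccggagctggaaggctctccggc
The Tgfb1 window held 5 GC boxes and the Tgfbr1 window 2, both at about 75% G and C (75.2 and 74.8%). The Tgfbr2 window had none at 58.4% G and C, and it alone of the 3 held a SMAD box, 1 copy. Of 32851 RefSeq promoter windows of the same length, 32.7% held GGGCGG and 42.2% held CAGAC on either strand. The palindrome GGCGCC, in 9.59% of all windows, occurred once in Tgfbr1, and TATAAA or its complement TTTATA, in 12.4% of all windows, occurred in none of the 3. These letter matches describe the windows and say nothing about binding.

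The Nar samples had less mRNA of both TGF-beta receptors, of the BMP receptor gene Bmpr1b, of the ligand gene Bmp6 and of the follistatin-like gene Fstl1, and more of Amh. Of the 48 tested members, 6 passed an adjusted p of 0.05 in edgeR's quasi-likelihood test (Benjamini-Hochberg over all tested genes), which is 12.5% of them against 3.93% of all 14595 tested genes. Of these 6, 5 were lower in Nar, where 2.36% of all tested genes were called lower, and 1 was higher, against 1.58% of all tested genes. At an unadjusted p under 0.05 there were 16 members (33.3%, against 22.5% of all tested genes), 14 lower and 2 higher. The 14 include Bmp5, which passed the filter on low counts with 4 EAE samples and 1 Nar sample above the cutoff. Bmp5 is higher in EAE, so it adds no support. The median log2 fold change (log2 change, coded Nar minus EAE) was −0.07 over the tested members and 0.02 over all tested genes. In 7 members the FPKM values of the groups did not overlap, 14.6% of the tested members against 5.88% of all tested genes. These 7 were Amh, Bmpr1b, Tgfbr1, Bmp6, Fstl1, Smad3 and Acvr1. In these bulk samples, fewer cells of a type and less RNA per cell cannot be told apart.

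**Figure D1:**
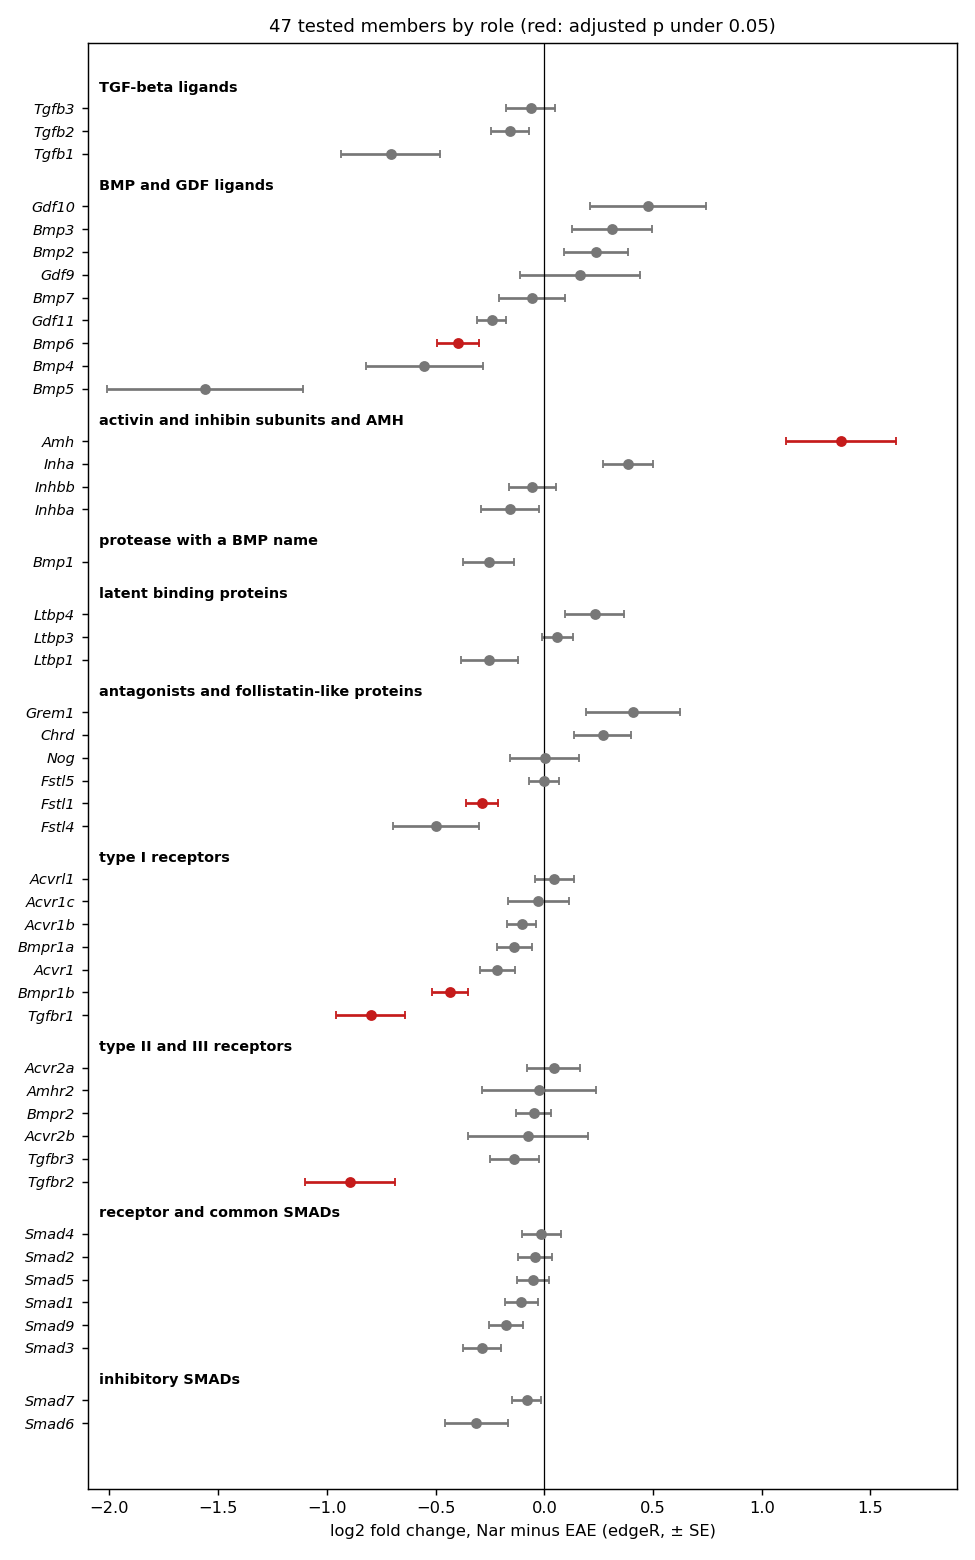
Log2 fold change (Nar minus EAE, edgeR) with its standard error for 47 of the 48 tested members, ordered by role on the vertical axis, with red for an adjusted p under 0.05. Amh at 1.36 is the only red point right of 0, and Tgfbr1, Tgfbr2, Bmpr1b, Bmp6 and Fstl1 lie left of 0.

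Of these 6 calls, Amh and Bmpr1b held whichever single sample was left out. Without EAE 1, EAE 4, Nar 1 or Nar 5 they were the only 2 members called. Calls over all genes fell too, from 574 to 276, 311, 161 and 166 in that order. Without EAE 5 or Nar 3 the member count was 3, without EAE 2 it was 4, without EAE 3 it was 7, and without Nar 4 it was 12. The 7 and the 12 include Ltbp2, which entered those tests only through EAE. Over all genes, 325 were called without EAE 5, 205 without Nar 3 and 487 without EAE 2. The count was 916 without EAE 3 and 1486 without Nar 4. With the mitochondrial read share of each sample as a covariate, edgeR called 0 of the 48 (9 at an unadjusted p under 0.05) and 197 of all tested genes. The parts of group and read share cannot be told apart.

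The levels of the members spanned a wide range. By mean FPKM over the 10 samples, which is scaled per length, the most abundant member was Fstl1 (22.0 ± 2.26 FPKM in Nar and 27.4 ± 1.25 in EAE; here and throughout, mean ± SD, n = 5). Next came the activin type I receptor gene Acvr1b (15.0 ± 0.858 and 16.4 ± 1.64 FPKM), the BMP type I receptor gene Bmpr1a (12.1 ± 1.06 and 13.6 ± 1.52 FPKM) and the ligand gene Gdf11 (11.0 ± 0.903 and 13.2 ± 0.712 FPKM). Acvr1b and Bmpr1a overlapped in their sample ranges, and so did Bmpr1a and Gdf11.

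**Figure D2:**
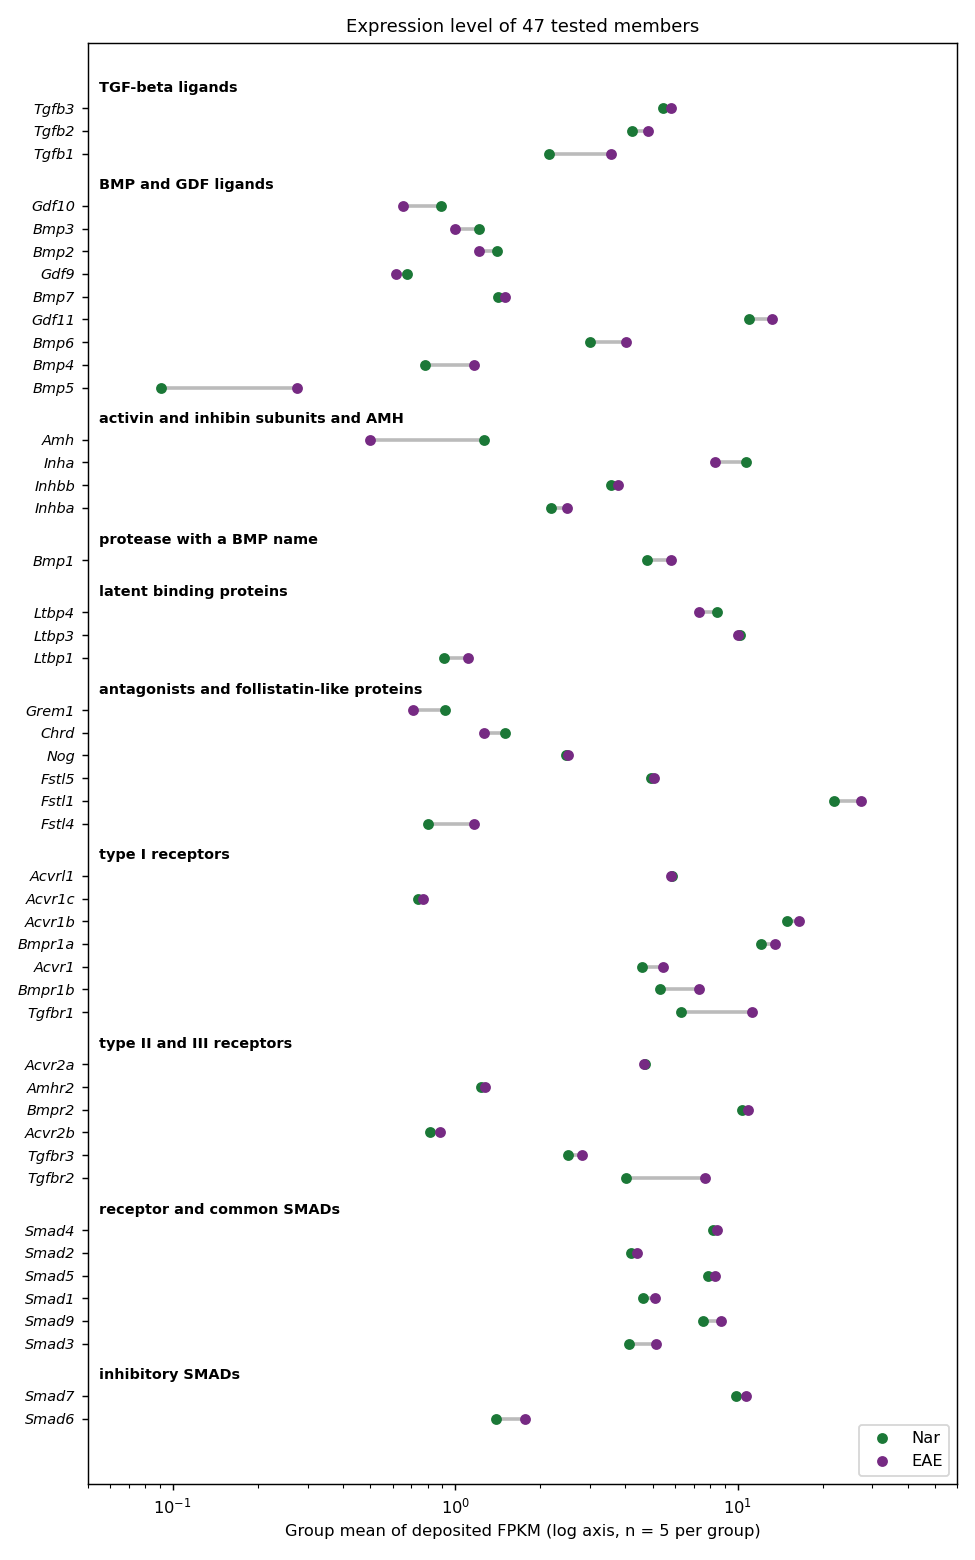
Mean deposited FPKM (log axis) of 47 tested members in Nar (green) and EAE (purple), 5 samples per group, ordered by role. Fstl1 lies farthest right and Bmp5 farthest left, and the widest gaps between the groups are those of Bmp5, Amh, Tgfbr2, Tgfbr1 and Tgfb1.

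The TGF-beta ligand genes had lower means in Nar, but 0 of 3 passed edgeR's test (1 at an unadjusted p under 0.05, 1 called by DESeq2 and 1 by limma-voom, each time Tgfb1). Tgfb1 codes for the isoform that immune cells and microglia make. Its level was 1.56, 1.68, 1.97, 3.88 and 1.64 FPKM in Nar 1 to 5, and 3.38, 3.31, 3.39, 4.33 and 3.47 FPKM in EAE 1 to 5. Nar 4 lay inside the EAE range, and the other 4 Nar samples lay well below all 5 EAE samples. Tgfb1 thus had a log2 change of −0.71 (SE 0.227, edgeR adjusted p = 0.102), or −1.03 when Nar 4 was left out (edgeR adjusted p = 3.76e-05).

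Tgfb2 and Tgfb3, the isoforms of neurons and glia, were more abundant than Tgfb1 per length in both groups. Tgfb2 had 4.23 ± 0.479 FPKM in Nar and 4.82 ± 0.402 in EAE, with a log2 change of −0.16 (edgeR adjusted p = 0.299). Tgfb3 had 5.46 ± 0.840 and 5.80 ± 0.540 FPKM, with a log2 change of −0.06 (edgeR adjusted p = 0.782). The groups overlapped in both genes.

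Tgfbr1, the type I receptor kinase of TGF-beta, fell in Nar. Its level was 5.97, 5.60, 4.76, 8.89 and 6.40 FPKM in Nar 1 to 5, and 12.6, 9.27, 8.90, 13.4 and 12.1 FPKM in EAE 1 to 5. The groups did not overlap, but Nar 4 lay next to EAE 3, the lowest EAE sample. In the test its log2 fold change was −0.80 (SE 0.159, edgeR adjusted p = 0.0210). The call ended without EAE 1, 4 or 5 or Nar 1 or 5 (edgeR adjusted p 0.0509 to 0.0615), and without Nar 4 the log2 fold change was −0.95 (edgeR adjusted p = 0.000195). The mitochondrial share as a covariate brought it to −0.46 (edgeR adjusted p = 0.263).

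Tgfbr2, the type II receptor kinase that binds TGF-beta first, fell as well. Its level was 3.43, 3.80, 3.73, 6.36 and 2.84 FPKM in Nar 1 to 5, and 7.24, 6.31, 6.06, 9.65 and 9.07 FPKM in EAE 1 to 5. Nar 4 lay inside the EAE range, above EAE 2 and EAE 3, and the other 4 Nar samples lay below every EAE sample. For Tgfbr2 the log2 fold change was −0.89 (SE 0.209, edgeR adjusted p = 0.0438), or −1.12 without Nar 4 (edgeR adjusted p = 0.000182). The call ended without any 1 of the other samples except EAE 3 (edgeR adjusted p 0.0577 to 0.109), and with no filter on low counts (edgeR adjusted p = 0.0597). With the mitochondrial share as a covariate, Tgfbr2 had a log2 change of −0.53 (edgeR adjusted p = 0.409). Tgfbr3, the coreceptor betaglycan that presents TGF-beta2, had 2.50 ± 0.297 FPKM in Nar and 2.82 ± 0.408 in EAE (log2 change −0.14, edgeR adjusted p = 0.486).

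**Figure D3:**
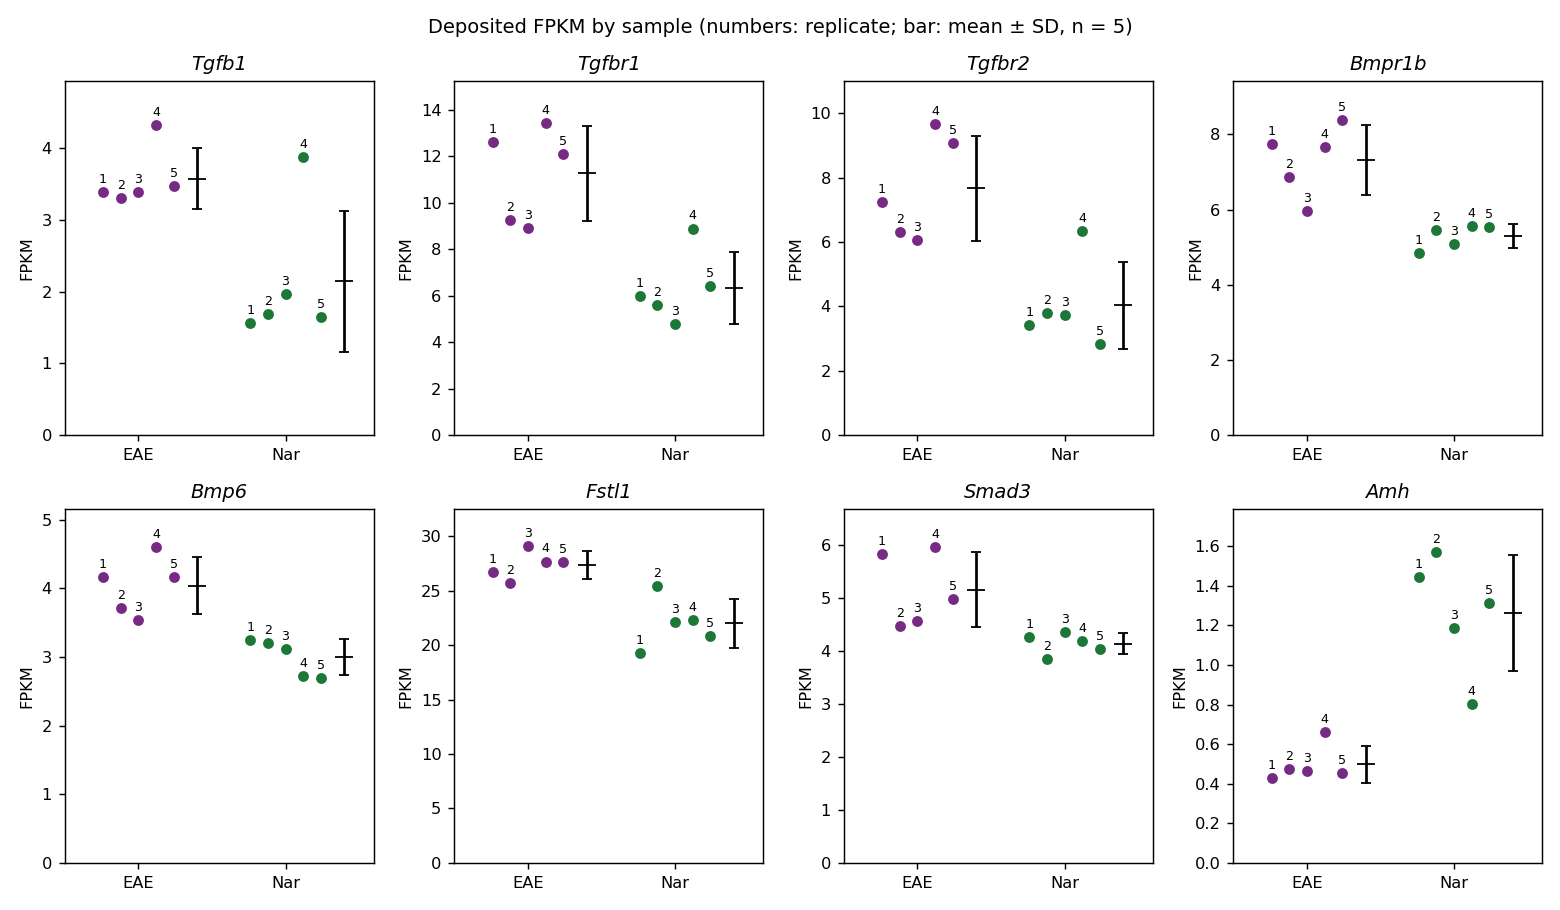
Deposited FPKM of 8 members in each sample (numbered points, EAE purple and Nar green), with mean and SD of 5 samples beside each group. Nar 4 sits at EAE level for Tgfb1 and Tgfbr2 and close to it for Tgfbr1, while it lies with its own group for Bmpr1b, Bmp6, Fstl1 and Smad3.

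Summed markers of several cell types, though not of all, moved with these 3 genes. The 4 microglia markers P2ry12, Tmem119, Cx3cr1 and Sall1 summed to 45.0 to 48.6 FPKM in Nar 1, 2, 3 and 5, to 91.1 FPKM in Nar 4 and to 71.3 to 88.5 FPKM in EAE. Of these 4, edgeR called 0 (2 at an unadjusted p under 0.05, 1 by DESeq2 and 1 by limma-voom), and 3 fell without Nar 4. Over all genes tested, 2.36% were called lower and 1.58% higher with all 10 samples, and 7.49% lower without Nar 4. As a share of the EAE mean, Tgfb1 stood at 43.5 to 55%, Tgfbr1 at 42.3 to 56.9% and Tgfbr2 at 37.1 to 49.5% in those 4 Nar samples, beside 55.9 to 60.3% for the microglia sum. In Nar 4 the shares were 109% for Tgfb1, 79% for Tgfbr1, 82.9% for Tgfbr2 and 113% for the microglia sum. The 7 macrophage and monocyte markers, of which 1 fell, summed to 1.27 to 2.31 FPKM in those 4 samples, 8.99 in Nar 4 and 1.77 to 79.6 in EAE, with Ms4a7 at 0 in at least 1 sample. The 6 astrocyte markers, of which 2 fell, summed to 61.7 to 67.5% of the EAE mean in the same 4 Nar samples and 107% in Nar 4. The 7 fibroblast and meningeal markers, of which 5 fell, summed to 42.2 to 45.7% there and 59.0% in Nar 4. The 5 T cell markers, of which 3 were tested and 1 fell, summed to 0.438 to 0.811 FPKM there, 3.19 in Nar 4 and 1.76 to 4.51 in EAE. The 5 endothelial markers (0 called by edgeR, 1 at an unadjusted p under 0.05, 0 by DESeq2 or limma-voom) summed to 58.6 to 66.3 FPKM in Nar and 52.6 to 61.5 in EAE. The 3 oligodendrocyte precursor markers, of which 1 rose, summed to 16.5 to 19.4 FPKM in Nar and 13.4 to 16.0 in EAE. The 4 neutrophil markers summed to 9.55 to 15.8 FPKM in Nar 1, 2, 3 and 5, 5.10 in Nar 4 and 2.32 to 24.8 in EAE. Neuron, mural, ependymal and Schwann cell sums overlapped between the groups. The part of these cell types in the result was not tested.

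**Figure D4:**
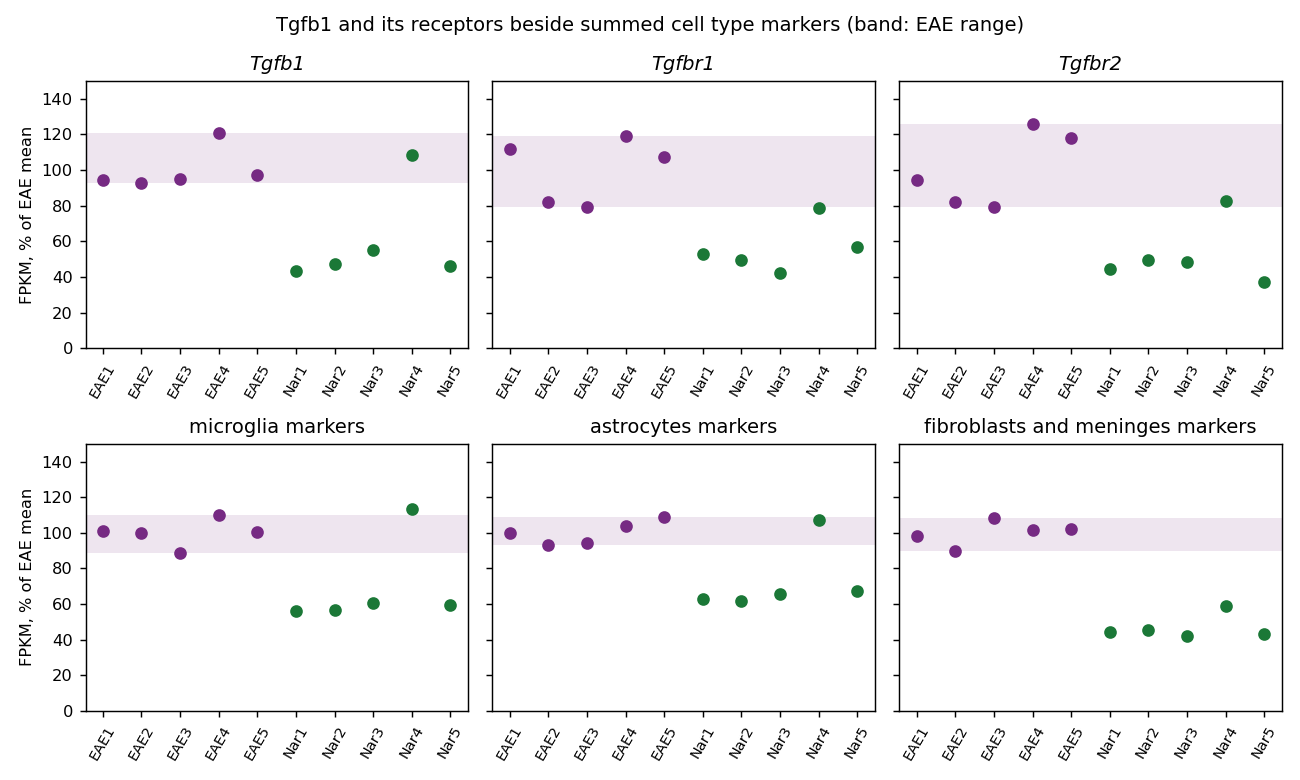
FPKM as a percentage of the EAE mean for Tgfb1, Tgfbr1, Tgfbr2 and 3 summed marker lists in each sample, with the EAE range shaded. Nar 1, 2, 3 and 5 lie below the band in all 6 panels, and Nar 4 lies inside it for Tgfb1, Tgfbr2 and the astrocyte sum and above it for the microglia sum.

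Among the receptors of BMPs and activins, 1 fell, where 2.36% of all tested genes were called lower. It was Bmpr1b, a type I receptor of BMP and GDF ligands. Its level was 4.86, 5.46, 5.10, 5.57 and 5.54 FPKM in Nar 1 to 5, and 7.75, 6.86, 5.96, 7.67 and 8.39 FPKM in EAE 1 to 5. The groups did not overlap, and Nar 4 lay with the other Nar samples. Its log2 fold change was −0.43 (SE 0.0826, edgeR adjusted p = 0.0137), or −0.45 when Nar 4 was left out (edgeR adjusted p = 0.00486). It was −0.23 once the mitochondrial share entered as a covariate (edgeR adjusted p = 0.241).

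Bmpr1a, its close relative, had 12.1 ± 1.06 FPKM in Nar and 13.6 ± 1.52 in EAE (log2 change −0.14, edgeR adjusted p = 0.317). Acvr1, the BMP receptor also known as ALK2, had 4.22, 4.51, 4.23, 4.88 and 5.10 FPKM in Nar 1 to 5, and 6.0, 5.54, 5.31, 5.19 and 5.10 FPKM in EAE 1 to 5. The lowest EAE value was EAE 5 and the highest Nar value was Nar 5, which met at nearly the same level without crossing. Its log2 change of −0.22 did not pass (SE 0.0807, edgeR adjusted p = 0.142). The type II receptor gene Bmpr2 had 10.3 ± 1.03 and 10.9 ± 1.18 FPKM (log2 change −0.05, edgeR adjusted p = 0.757).

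The remaining receptors did not pass and overlapped between the groups. Acvr1b had a log2 change of −0.10 (edgeR adjusted p = 0.376) and the activin type II receptor gene Acvr2a one of 0.04 (edgeR adjusted p = 0.860, 4.68 ± 0.441 FPKM in Nar and 4.65 ± 0.952 in EAE). Acvrl1, the endothelial receptor of BMP9 and BMP10, had 5.88 ± 0.454 and 5.80 ± 0.610 FPKM. Acvr1c, Acvr2b and the AMH receptor gene Amhr2 had 0.411 to 1.62 FPKM in all samples, with edgeR adjusted p of 0.896 to 0.965. In all, 3 of 13 receptor genes fell and 0 rose, with log2 fold changes of −0.89 to 0.05. Over all tested genes, 2.36% were called lower and 1.58% higher. Of these 3 receptor calls, only that of Bmpr1b held whichever single sample was left out.

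Among the 9 tested BMP and GDF ligands, Bmp6 fell in edgeR's test, where 2.36% of all tested genes were called lower. It was also the 1 called by limma-voom. DESeq2 called 3 lower, adding Gdf11 and Bmp5, but over all genes it called 786 lower against 344 in edgeR. Bmp5, at 3 to 11 reads in Nar, adds no support. Bmp6, which endothelial cells of the liver make to control hepcidin and which is also expressed in brain, had 3.25, 3.20, 3.12, 2.73 and 2.70 FPKM in Nar 1 to 5, and 4.17, 3.72, 3.54, 4.60 and 4.17 FPKM in EAE 1 to 5. The groups did not overlap, and Nar 4 was among the 2 lowest samples. For Bmp6 the log2 fold change was −0.40 (SE 0.0959, edgeR adjusted p = 0.0362). Bmp6 lost its call without EAE 1, 4 or 5 or Nar 1, 3 or 5 (edgeR adjusted p 0.0611 to 0.0936). In its exons 5.74% of bases are shared with Txndc5 on the other strand, and the library protocol names no step that marks strand.

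Gdf11, a ligand that acts through activin receptors and Smad2 and Smad3, was the most abundant ligand of this group. It had 10.5, 10.4, 10.1, 12.3 and 11.4 FPKM in Nar 1 to 5, and 13.8, 12.3, 13.5, 13.9 and 12.7 FPKM in EAE 1 to 5. Only Nar 4 reached the EAE range, at the level of EAE 2. The log2 fold change was −0.24 (SE 0.0679, edgeR adjusted p = 0.0618, DESeq2 adjusted p = 0.0185), or −0.29 when Nar 4 was left out (edgeR adjusted p = 0.0135).

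Bmp5 and Bmp4 had lower means in Nar but did not pass edgeR's test. Bmp5 was counted at 4, 3, 6, 3 and 11 reads in Nar 1 to 5, and 19, 18, 26, 29 and 7 reads in EAE 1 to 5. EAE 5 lay inside the Nar range. Its log2 fold change was −1.56 (SE 0.450, edgeR adjusted p = 0.0683). It passed in DESeq2 (−1.58, adjusted p = 0.0351) and, in edgeR, without EAE 5 (−1.77, adjusted p = 0.0418). Bmp5 passed the filter on low counts with only 4 EAE samples and 1 Nar sample above the cutoff. In addition, 46.7% of its exonic sequence overlaps Gm26903 on the other strand. Its value is therefore uncertain. Bmp4 had 0.781 ± 0.221 FPKM in Nar and 1.17 ± 0.329 in EAE (edgeR adjusted p = 0.241).

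Bmp2, Bmp3, Bmp7, Gdf9 and Gdf10 overlapped between the groups, with log2 fold changes of −0.06 for Bmp7, the BMP of meninges and choroid plexus (edgeR adjusted p = 0.858), to 0.48 for Gdf10. Gdf10, a ligand that astrocytes make, had 0.889 ± 0.312 FPKM in Nar and 0.654 ± 0.153 in EAE (edgeR adjusted p = 0.307). Without Nar 4, the lowest of all 10 samples, its log2 fold change was 0.68 (edgeR adjusted p = 0.0329).

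Amh rose in Nar, the only member that edgeR or limma-voom called higher (DESeq2 also called Inha). It codes for anti-Müllerian hormone, known from the gonads, where it makes the Müllerian duct regress, and also reported in neurons. Its level was 1.45, 1.57, 1.19, 0.802 and 1.31 FPKM in Nar 1 to 5, and 0.431, 0.474, 0.466, 0.663 and 0.453 FPKM in EAE 1 to 5. All 5 Nar samples lay above all 5 EAE samples, with Nar 4 the lowest of Nar and EAE 4 the highest of EAE. These levels rest on 20 to 38 reads in each Nar sample and 12 to 20 in each EAE sample. The log2 fold change was 1.36 (SE 0.253, edgeR adjusted p = 0.0119), or 1.49 when Nar 4 was left out (edgeR adjusted p = 0.00108). With the mitochondrial read share as a covariate it was 1.52 (edgeR adjusted p = 0.0751). Of the 5 oligodendrocyte markers 2 rose, where 1.58% of all tested genes were called higher. The 5 summed to 4837 to 5213 FPKM in Nar 1, 2, 3 and 5, 4309 in Nar 4 and 3345 to 4477 in EAE. Their part in the result was not tested.

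Amh starts 318 bases after the end of Sf3a2, a splicing factor gene on the same strand, and shares no exon base with another gene. Sf3a2 had 8.62 ± 0.781 FPKM in Nar and 9.09 ± 1.18 in EAE (log2 change −0.05, edgeR adjusted p = 0.800). Jsrp1, on the other strand, has its nearer end 847 bases past the end of Amh, and its 8 to 23 reads per sample gave 0.768 ± 0.279 FPKM in Nar and 0.533 ± 0.192 in EAE (log2 change 0.55, SE 0.348, edgeR adjusted p = 0.366). The groups overlapped in both neighbours, and the part of reads from neighbouring genes in the Amh result was not tested. The AMH receptor gene Amhr2 had 1.23 ± 0.278 and 1.28 ± 0.391 FPKM (log2 change −0.03, edgeR adjusted p = 0.965).

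Inha, the inhibin alpha subunit that turns an activin subunit into an activin antagonist, had 12.6, 8.18, 11.6, 9.72 and 11.2 FPKM in Nar 1 to 5. In EAE 1 to 5 it had 7.61, 9.01, 8.11, 8.22 and 8.59 FPKM. All Nar samples except Nar 2 lay above EAE. Its log2 change of 0.39 did not pass in edgeR (SE 0.114, adjusted p = 0.0743) and passed in DESeq2 (0.38, adjusted p = 0.0336). In edgeR it passed without Nar 4 (0.42, adjusted p = 0.0413) and without Nar 2 (0.45, adjusted p = 0.0307), and it was 0.25 with the mitochondrial share as a covariate (adjusted p = 0.477). The activin subunit genes Inhba and Inhbb had log2 fold changes of −0.16 and −0.05 (edgeR adjusted p = 0.497 and 0.802), at 2.18 ± 0.185 and 3.57 ± 0.590 FPKM in Nar and 2.49 ± 0.558 and 3.78 ± 0.109 in EAE.

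Latent TGF-beta binding proteins tether latent TGF-beta to the matrix, and 0 of the 3 tested by edgeR passed (0 of these 3 at an unadjusted p under 0.05, 0 by DESeq2 or limma-voom). DESeq2, which also tested Ltbp2 at its low read counts, called that gene lower (log2 change −1.36, DESeq2 adjusted p = 0.0381). Ltbp3 had 10.2 ± 1.09 FPKM in Nar and 9.99 ± 0.588 in EAE, Ltbp4 8.46 ± 1.62 and 7.32 ± 1.03, and Ltbp1 0.915 ± 0.0741 and 1.11 ± 0.183. Their log2 fold changes were 0.06, 0.23 and −0.25. Bmp1, which despite its name is a protease that trims procollagen and cleaves chordin, had 5.16, 3.65, 4.41, 6.29 and 4.35 FPKM in Nar 1 to 5. In EAE 1 to 5 it had 5.80, 5.21, 5.72, 6.14 and 6.2 FPKM. Nar 4 was the highest of all 10 samples and the other 4 Nar samples lay below EAE. Its log2 fold change was −0.26 (edgeR adjusted p = 0.210), or −0.37 when Nar 4 was left out (edgeR adjusted p = 0.0155).

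Of the 7 tested antagonists and follistatin-like genes, Fstl1 fell and 0 rose, where 2.36% of all tested genes were called lower and 1.58% higher. Fstl1, a secreted glycoprotein of fibroblasts and glia that binds BMP4 and TGF-beta receptors, had 19.3, 25.4, 22.1, 22.3 and 20.9 FPKM in Nar 1 to 5, and 26.7, 25.7, 29.1, 27.7 and 27.6 FPKM in EAE 1 to 5. The groups did not overlap, with Nar 2 just below EAE 2. The log2 fold change was −0.29 (SE 0.0744, edgeR adjusted p = 0.0488), and the call ended without any 1 of the samples other than Nar 2 and Nar 4 (edgeR adjusted p 0.0561 to 0.129).

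The BMP antagonist genes Nog, Chrd and Grem1 did not pass. Nog, which codes for noggin, had 2.46 ± 0.422 FPKM in Nar and 2.51 ± 0.267 in EAE (SE of the log2 fold change 0.160). Chrd and Grem1 had log2 fold changes of 0.27 and 0.41 (edgeR adjusted p = 0.241 and 0.283). Of the follistatin-like genes, Fstl5 had a log2 change of −0.00065 (SE 0.0690, edgeR adjusted p = 0.997) and Fstl4 one of −0.50 (SE 0.197, edgeR adjusted p = 0.161). For Fstl4 the highest sample was EAE 4 at 1.76 FPKM, against 0.643 to 1.08 FPKM in the other 9.

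All 8 SMAD genes were tested, and 0 passed in edgeR. At an unadjusted p under 0.05 there were 3, where 22.5% of all tested genes reached it. DESeq2 called 1, Smad3, and limma-voom 0, where over all genes they called 1283 and 881. Smad3, which carries TGF-beta and activin signals, had 4.26, 3.86, 4.36, 4.18 and 4.04 FPKM in Nar 1 to 5, and 5.83, 4.46, 4.56, 5.97 and 4.97 FPKM in EAE 1 to 5. The groups did not overlap, and Nar 4 lay in the middle of its group. For Smad3 the log2 fold change was −0.29 (SE 0.0856, edgeR adjusted p = 0.0765, DESeq2 adjusted p = 0.0398), and −0.19 with the mitochondrial share as a covariate (edgeR adjusted p = 0.463). Smad2, its close relative, had 4.18 ± 0.222 FPKM in Nar and 4.40 ± 0.542 in EAE, with a log2 change of −0.04 (SE 0.0793, edgeR adjusted p = 0.782). The difference between these 2 genes was not tested.

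Among BMP SMADs, Smad9 had a log2 change of −0.18 (SE 0.0799, edgeR adjusted p = 0.210, 7.53 ± 0.731 and 8.70 ± 0.815 FPKM), Smad1 one of −0.11 and Smad5 one of −0.05 (SE 0.0725, edgeR adjusted p = 0.699). The common Smad4 had 8.18 ± 0.605 FPKM in Nar and 8.45 ± 1.13 in EAE (log2 change −0.01, SE 0.0889). The inhibitory Smad6, a BMP target, had 1.39 ± 0.205 and 1.77 ± 0.119 FPKM (log2 change −0.31, SE 0.145, edgeR adjusted p = 0.217). The inhibitory Smad7, a TGF-beta target, had 9.88 ± 0.545 and 10.7 ± 0.943 FPKM (log2 change −0.08, SE 0.0659, edgeR adjusted p = 0.486).

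Across the family, Nar 1, 2, 3 and 5 lay apart from EAE in 13 of the 48 tested members (12.9% of all tested genes did so), 11 below and 2 above. In 4 of the 13, Tgfb1, Tgfbr2, Gdf11 and Fstl4, Nar 4 lay inside the EAE range, and over all tested genes it did so in 807 of 1876. Without Nar 4, 51 members were tested and edgeR called 12 (10.1% of all genes tested without it), 9 lower and 3 higher (against 7.49 and 2.61% of all genes). They were the 6 named above with Tgfb1, Gdf11, Bmp1, Ltbp2, Inha and Gdf10. Ltbp2, at 4 to 8 reads in Nar and 9 to 28 in EAE, was not tested with all 10 samples. Without Nar 4 it passed the filter on low counts only through EAE, where it is higher, so its call adds no support. Nar 4 was singled out after its values were seen, so these counts only describe the remaining 9 samples.

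Of the 16 members not tested, none exceeded 28 reads or 0.484 FPKM in any sample. They were Bmp8a, Bmp8b, Bmp10, Bmp15, Gdf1, Gdf2, Gdf3, Gdf5, Gdf6, Gdf7, Gdf15, Inhbc, Inhbe, Fst, Fstl3 and Ltbp2. Bmp10 had 0 reads in all samples, where 3 reads would have been 0.0352 to 0.0461 FPKM, a limit for counting error only. Gdf1 was listed at 0 in all samples, and 100% of its exon bases lie in exons of Cers1 on the same strand, so its reads could not be told from those of Cers1. Gdf15, a stress-induced cytokine, had 1, 1, 7, 9 and 3 reads in Nar 1 to 5 and 13, 9, 14, 11 and 13 in EAE 1 to 5. Ltbp2 had 4 to 8 reads across Nar and 9 to 28 across EAE.

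Other genes of the pathway were taken from 7 lists of storage factors, antagonists, coreceptors, modulators and targets. Earlier results on the collagens and decorin were known when the lists were made, so their counts are not independent evidence. Of 92 genes 79 were tested, 12 fell and 0 rose (edgeR), which is 15.2% against 3.93% of all tested genes, and their median log2 change was −0.15. The fibroblast and meningeal marker sum given above lay lower in the same samples, and Col1a1, Col1a2, Col3a1 and Dcn are in both lists. Its part in these counts was not tested.

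Among genes that store or release latent TGF-beta, 2 of 14 fell (14.3%, against 2.36% of all tested genes). At an unadjusted p under 0.05, 7 were lower (50%, against 22.5% of all tested genes in either direction). DESeq2 called 4, limma-voom 3, and edgeR without Nar 4 called 4. The 2 were the membrane metalloproteinase gene Mmp14 (2.81 ± 0.527 FPKM in Nar and 5.33 ± 0.901 in EAE, log2 change −0.90, edgeR adjusted p = 0.00372) and the gelatinase gene Mmp2 (−0.58, edgeR adjusted p = 0.0336). Mmp2 lost its call without EAE 1, 4 or 5 or Nar 3 or 5 (edgeR adjusted p 0.0570 to 0.0908). Among other extracellular antagonists 4 of 12 fell. They were the small proteoglycans that bind TGF-beta, Bgn (−0.69, edgeR adjusted p = 0.000782), Fmod (−1.47, edgeR adjusted p = 0.00535) and Dcn (−1.0, edgeR adjusted p = 0.0102), and the BMP antagonist gene Nbl1 (−0.42, edgeR adjusted p = 0.0154). Nbl1 had 21.6 ± 2.06 FPKM in Nar and 29.4 ± 2.17 in EAE, and its call ended without Nar 1 (edgeR adjusted p = 0.0520).

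Of 20 intracellular modulators, 1 fell (5.0%, against 2.36% of all tested genes called lower and 3.93% called in either direction). It was the SMAD corepressor gene Tgif1 (log2 change −0.90, edgeR adjusted p = 0.0334). Tgif1 had 1.5 FPKM in Nar 4, 0.576 to 0.811 FPKM in the rest of Nar and 1.47 to 1.8 in EAE, and its call ended without EAE 1, 4 or 5 or Nar 1, 3 or 5. Of the 7 coreceptors and pseudoreceptors, 0 passed (edgeR, 1 at an unadjusted p under 0.05, 0 by DESeq2 or limma-voom). Of the 2 other ligands tested, 0 passed (edgeR, 0 at an unadjusted p under 0.05, 0 by DESeq2 or limma-voom).

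Known targets of TGF-beta and of BMP gave different counts, though the difference was not tested. With all 10 samples, 2.36% of all tested genes were called lower. Without Nar 4, edgeR called 7 of the 15 TGF-beta targets and 2 of the 9 BMP targets lower, against 7.49% of all genes. Of 15 TGF-beta targets 5 fell, the collagen genes Col1a1 (1.08 ± 0.112 FPKM in Nar and 4.17 ± 0.429 in EAE), Col3a1 (0.362 ± 0.0583 and 2.43 ± 0.431) and Col1a2 (3.06 ± 0.670 and 4.68 ± 0.344), the matrix gene Postn (0.140 ± 0.0425 and 0.776 ± 0.214) and the integrin gene Itgb5 (21.4 ± 6.63 and 34.7 ± 2.96). Itgb5 kept its call only when Nar 4 was the sample left out (33.2 FPKM in Nar 4 and 18.0 to 19.0 in the other Nar samples), and Col1a2 lost it without Nar 1 or 5.

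Of 9 BMP targets, 0 passed with all 10 samples (edgeR, 2 at an unadjusted p under 0.05, 0 by DESeq2 or limma-voom), and 2 fell without Nar 4. The Id genes, inhibitors of basic helix-loop-helix factors that BMP signalling switches on, had log2 fold changes of −0.07 for Id1 (SE 0.153), −0.15 for Id2 (SE 0.110), −0.29 for Id3 (SE 0.104, edgeR adjusted p = 0.124) and −0.14 for Id4 (SE 0.0652, edgeR adjusted p = 0.229). Id3 had 29.0 ± 4.25 FPKM in Nar and 36.2 ± 3.54 in EAE, and passed without Nar 4 (−0.36, edgeR adjusted p = 0.0330) and with the mitochondrial share as a covariate (−0.54, edgeR adjusted p = 0.0402). These values do not show that BMP target expression was the same in both groups.

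**Figure D5:**
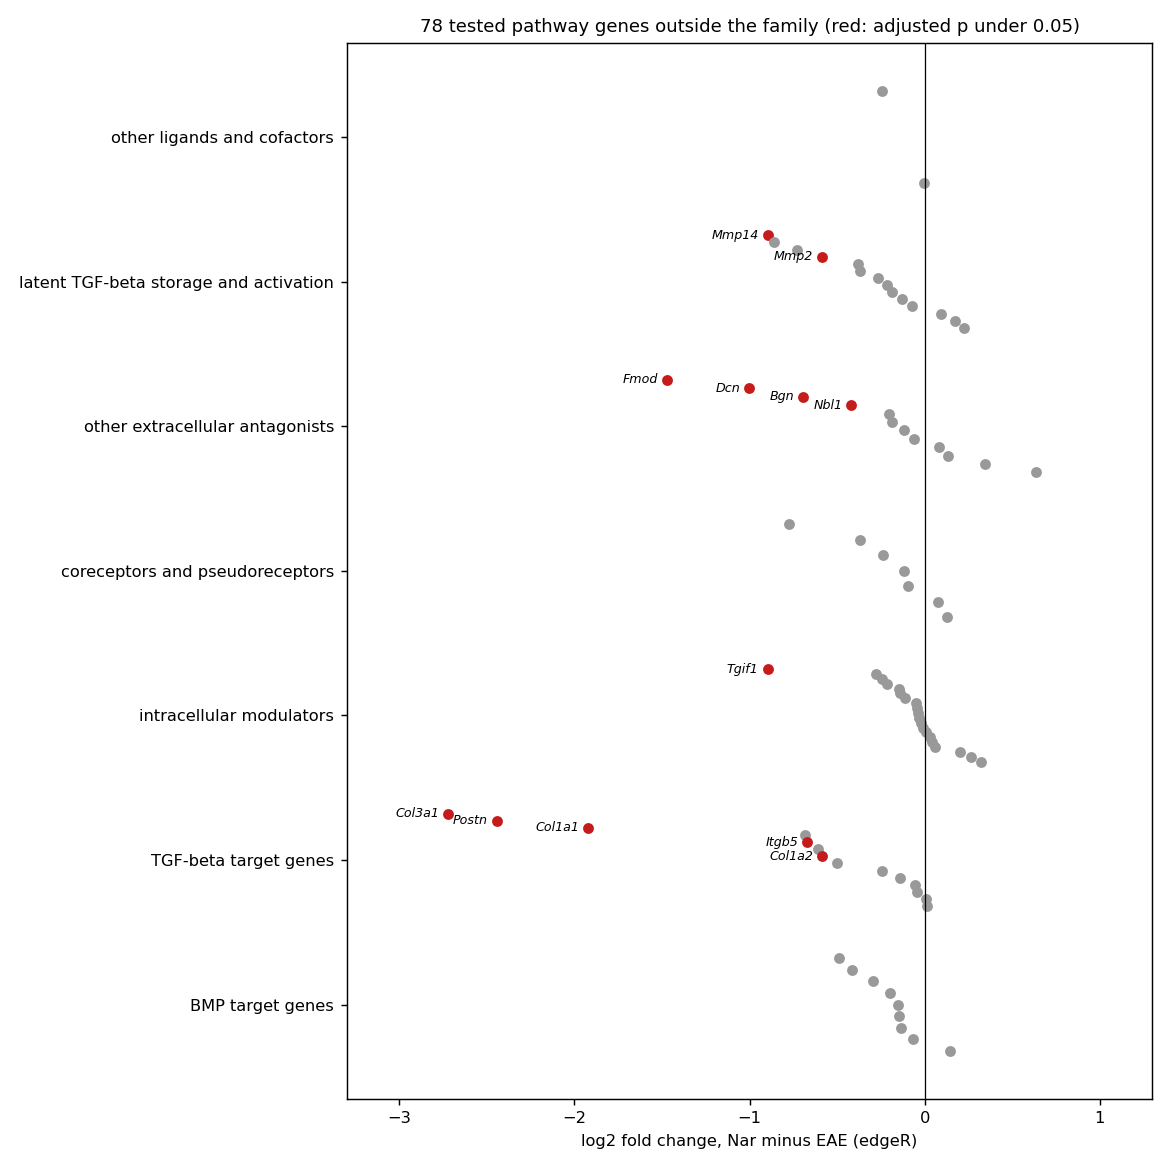
Log2 fold change (Nar minus EAE, edgeR) of 78 of the 79 tested pathway genes outside the family, 1 point per gene, in 7 lists, with genes past an adjusted p of 0.05 in red and named. All 12 red points lie left of 0, and the list of BMP targets has none.

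In the GRCm38 coordinates of the table, Tgfbr1 (ENSMUSG00000007613) spans chr4:47353222-47414931, Tgfbr2 (ENSMUSG00000032440) chr9:116084293-116175360 and Bmpr1b (ENSMUSG00000052430) chr3:141837136-142169425. Bmp6 (ENSMUSG00000039004) spans chr13:38345107-38500302, Fstl1 (ENSMUSG00000022816) chr16:37776873-37836514, Amh (ENSMUSG00000035262) chr10:80805243-80807648 and Tgfb1 (ENSMUSG00000002603) chr7:25687002-25705077. These spans run from the first to the last annotated base, introns included.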

How the data were processed

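mRNA of 10 mouse spinal cord samples was sequenced. The labels' protocols name Trizol extraction, poly-T capture and random priming, and no strand-marking step. The submitters' processing notes name cutadapt and HISAT2 2.0.5. The counter and the annotation release were not given in the sources used here. For each gene and sample the authors deposited a raw read count and an FPKM, per the file headers. The deposited FPKM equals count over gene length and column total (100% of 153986 values above 0.1 within 1%). Of the 21936 identifiers, 21817 are in GENCODE M21 (GRCm38), 21617 with the same start and end.

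Samples were grouped by title, 5 against 5. edgeR 4.0.16 (R 4.3.3) tested the counts of the whole table, using filterByExpr at a minimum count of 10, TMM factors, robust glmQLFit, glmQLFTest, Benjamini-Hochberg over 14595 genes, and was checked on simulated data. The standard error is the log2 fold change over the square root of F. FPKM gave levels and overlaps. Promoters came from RefSeq (GRCm38.p6), where 46 of the 64 symbols matched; the Bmp6 and Fstl1 windows were not printed.

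Alternatives were DESeq2 1.42.0 (size factors or Wald test), upper quartile factors, other filters, limma 3.58.1 (voom, or log2 of FPKM plus 1 or 0.1), a replicate block, the mitochondrial share and leaving out each sample. Members named are those with unadjusted p under 0.05 and the 3 most abundant of each role; other pathway genes named are those past an adjusted p of 0.05, with Id1 to Id4. A few genes that the lists or the naming rule hold are not reported here by name, and 1 marker was left out of the microglia list. Members outside this rule were named after their values were seen. Members, lists and markers were chosen with earlier results of these data known.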

Additional observations from a re-analysis of the deposited data

Results flagged for a closer look

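In 96 groups of 5 FPKM values (48 named genes in Nar and in EAE), 13 had a highest or lowest sample set far from the other 4. The rule would flag about 1 in 20 groups of independent values. Genes that vary together in 1 sample are not independent, so the 13 cannot be judged against that rate. In 7 of the 13 the sample was Nar 4, each time above the rest of Nar. Tgfb1 had 3.88 FPKM in Nar 4 where the rest of Nar had 1.56 to 1.97, and Tgfbr2 6.36 against 2.84 to 3.80. Tgif1 had 1.5 FPKM against 0.576 to 0.811 and Itgb5 33.2 against 18.0 to 19.0. The matrix genes Dcn (3.14 against 1.69 to 1.98), Fmod (5.29 against 2.25 to 2.90) and Col1a2 (4.22 against 2.60 to 3.03) were set apart in the same sample.

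EAE 4 was the highest of its group for Tgfb1 (4.33 FPKM against 3.31 to 3.47), Amh (0.663 against 0.431 to 0.474), Fstl4 (1.76 against 0.951 to 1.08) and Id4 (44.3 against 37.0 to 38.1). Smad5 was lowest in EAE 3 (6.91 FPKM against 8.45 to 9.02) and Ltbp3 in Nar 2 (8.32 against 10.3 to 11).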

How the results depend on the processing

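Over all genes, the main count of 574 (230 higher, 344 lower) became 1283 with the DESeq2 Wald test, 881 with limma-voom and 197 with the mitochondrial share as a covariate, and 161 (without Nar 1) to 1486 (without Nar 4) when 1 sample was left out. On log2 FPKM + 1 it was 719 (193 higher, 526 lower), on log2 FPKM + 0.1 it was 729 (191 higher, 538 lower), and with no filter 538 (140 higher, 398 lower). The member count of 6 became 12 with DESeq2, which also tested genes of low count, 0 with the mitochondrial share (9 at an unadjusted p under 0.05), and 2 to 12 with 1 sample left out. The count of 12 other pathway genes became 6 with the mitochondrial share and 8 to 19 with 1 sample left out. The causes were not tested. The titles number replicates 1 to 5 in both groups. Same-numbered samples did not deviate together (correlations −0.23 to 0.16), so the numbers are not taken as pairs. With the replicate block, edgeR called 636 genes, 5 members (Amh, Bmpr1b, Tgfb1, Tgfbr1 and Tgfbr2) and 11 other pathway genes.

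Of 1003 recomputed fold changes of the 48 named genes, 895 kept direction and side of the threshold, 68 lost a call, 20 gained one and 20 turned sign, none of the 20 in a gene called here. With the mitochondrial share the log2 fold change turned to 0.0208 for Acvr1b, 0.10 for Smad5, 0.0279 for Bmpr1a, 0.22 for Smad4, 0.0360 for Smad7, 0.11 for Fstl5, 0.0485 for Inhba and 0.11 for Bmpr2. Leaving out 1 sample at a time gave log2 fold changes on both sides of 0 for Bmp7 (−0.131 to 0.0473), Smad4 (−0.0815 to 0.0266), Fstl5 (−0.0581 to 0.0198), Acvr2a (−0.0510 to 0.113) and Id1 (−0.171 to 0.0653). Low counts limit Amh, Bmp5 and the members not tested.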
